A study of Mus musculus with 2 samples.

Results

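Regulatory T cells are the CD4+ T lymphocytes that restrain other immune cells, and 10 of their characteristic genes were read here in mouse spleen: Foxp3, Il2ra, Ctla4, Ikzf2, Tnfrsf18, Tnfrsf4, Lrrc32, Gpr83, Itgae and Nrp1. They were chosen by symbol, and each matched 1 of the 22216 gene rows of the deposited table. Whole spleens of NOD.L7 mice and of NOD.g7 mice were compared by RNA sequencing, with 1 library per genotype, each made from the pooled spleens of 3 mice. Both names mark non-obese diabetic (NOD) mice, an inbred line prone to spontaneous autoimmune diabetes. The labels do not say what L7 or g7 stand for, and give no age, sex or treatment for either group. The table heads its columns NOD.LC7 and NOD. NOD.LC7 was read as the NOD.L7 library and NOD as the NOD.g7 library.

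Regulatory T cells depend on the transcription factor Foxp3, and mice or people without it develop severe autoimmunity. The cells carry the high-affinity interleukin-2 receptor, whose alpha chain (CD25) is encoded by Il2ra, and they hold back antigen-presenting cells in part through the inhibitory receptor CTLA-4, which competes with the co-stimulator CD28 for the ligands CD80 and CD86. In the spleen they are a minority of the CD4+ T cells, and most of the 10 genes are not made by them alone. Activated T cells share several of them, and neuropilin-1, CD103 and GARP are also found on cells outside the T lineage.

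The promoters of 3 of these genes are shown because their values mark the ends of the results below: Gpr83 and Foxp3 had the largest folds between the libraries, and Tnfrsf18 had the highest level and the smallest fold. RefSeq start sites were matched for 7 of the 10 genes, with 8 promoter windows of 300 bases, each from 250 bases before the start to 50 after it (build GRCm38.p6, all on the plus strand). Windows were searched on both strands for TGTTTAC (forkhead), TTCNNNGAA (STAT), TGTGGTT (RUNX) and GGAAA (the ETS and NFAT core). Capitals mark every match to the first 3, none of which overlap one another in these windows, and the short core is not marked.
Gpr83 (chr9:14859960-14860259): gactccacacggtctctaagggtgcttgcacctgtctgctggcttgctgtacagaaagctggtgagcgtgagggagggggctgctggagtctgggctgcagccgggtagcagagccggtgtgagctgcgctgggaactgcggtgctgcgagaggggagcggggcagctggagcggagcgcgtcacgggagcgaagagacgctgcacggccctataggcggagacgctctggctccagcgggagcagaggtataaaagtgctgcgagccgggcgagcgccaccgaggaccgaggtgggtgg
Foxp3, first start (chrX:7579426-7579725): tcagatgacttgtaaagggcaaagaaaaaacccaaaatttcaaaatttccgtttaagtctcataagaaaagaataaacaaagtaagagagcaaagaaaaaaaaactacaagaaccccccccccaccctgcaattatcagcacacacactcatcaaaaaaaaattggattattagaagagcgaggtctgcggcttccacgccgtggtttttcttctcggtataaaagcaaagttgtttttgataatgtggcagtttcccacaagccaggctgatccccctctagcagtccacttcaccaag
Foxp3, second start (chrX:7580233-7580532): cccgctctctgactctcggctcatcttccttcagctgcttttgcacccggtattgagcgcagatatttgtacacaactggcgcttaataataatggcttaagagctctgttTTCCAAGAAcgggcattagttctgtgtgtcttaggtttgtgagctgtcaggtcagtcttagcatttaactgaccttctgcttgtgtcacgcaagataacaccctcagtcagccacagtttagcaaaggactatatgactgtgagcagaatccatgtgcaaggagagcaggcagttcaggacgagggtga
Tnfrsf18 (chr4:156026072-156026371): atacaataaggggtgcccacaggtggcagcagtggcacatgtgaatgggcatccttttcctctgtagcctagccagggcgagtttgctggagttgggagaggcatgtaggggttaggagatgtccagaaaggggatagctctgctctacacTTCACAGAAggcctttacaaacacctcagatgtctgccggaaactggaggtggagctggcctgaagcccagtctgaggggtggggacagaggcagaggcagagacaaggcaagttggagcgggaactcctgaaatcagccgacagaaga
The STAT letters were in 2 of the 8 windows, that of the second Foxp3 start and that of Tnfrsf18, and in 8.3% of the 32851 windows of this length in the RefSeq table. The forkhead letters were in none of the 8 windows and in 3.65% of all windows, and the RUNX letters in none of the 8 and in 5.27% of all. The GGAAA core was in 7 of the 8 windows, all but that of Gpr83, and in 61.3% of all windows, and in the second Foxp3 window it overlaps the STAT letters. Such matches describe the letters and not binding. The Gpr83 window held 24 CG dinucleotides, the Foxp3 windows 6 and 8 and the Tnfrsf18 window 4, against a median of 7 over all windows.

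Every one of the 10 genes had a higher deposited level in the NOD.L7 library than in the NOD.g7 library, by 9.32% to 76.6%. Once each library was scaled to its Cd4 level, 3 of the 10 were higher, beside 7.2% of all kept genes, as described below. Levels are RPKM values, sequence scaled to gene length and library size, so that genes can be compared with one another. A gene was kept if its RPKM reached 1 in at least 1 library, as all 10 did. Differences are given as the plain fold of NOD.L7 over NOD.g7 and as a log2 ratio after adding 1 RPKM to both values, which understates the change of low genes. With 1 library per genotype there is no replicate spread and no p-value, so each difference holds for these libraries and not for the genotypes. The intervals are 95% exact binomial (Clopper-Pearson) intervals that cover counting error only.

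The median log2 ratio of the 10 genes was 0.21, against 0.02 over the 11141 kept genes, of which 56.2% were higher in NOD.L7. None of the 10 reached an absolute log2 ratio of 1, as 0.709% of kept genes did. A log2 ratio of 0.25 or more was reached by 3 of the 10, namely Gpr83, Foxp3 and Ctla4, against 8.82% of kept genes. Among the 9264 kept genes whose mean level lay within that of the 10 genes (RPKM 1.23 to 42.0) the share was 8.86%. The 0.25 cut was chosen with earlier results of these data known, and Nrp1 and Il2ra, both at 0.23, lay just under it. The counting interval of the fold lay above 1 for 9 of the 10 genes, all but Lrrc32, and for 29.6% of kept genes with a transcript length.

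**Figure D1:**
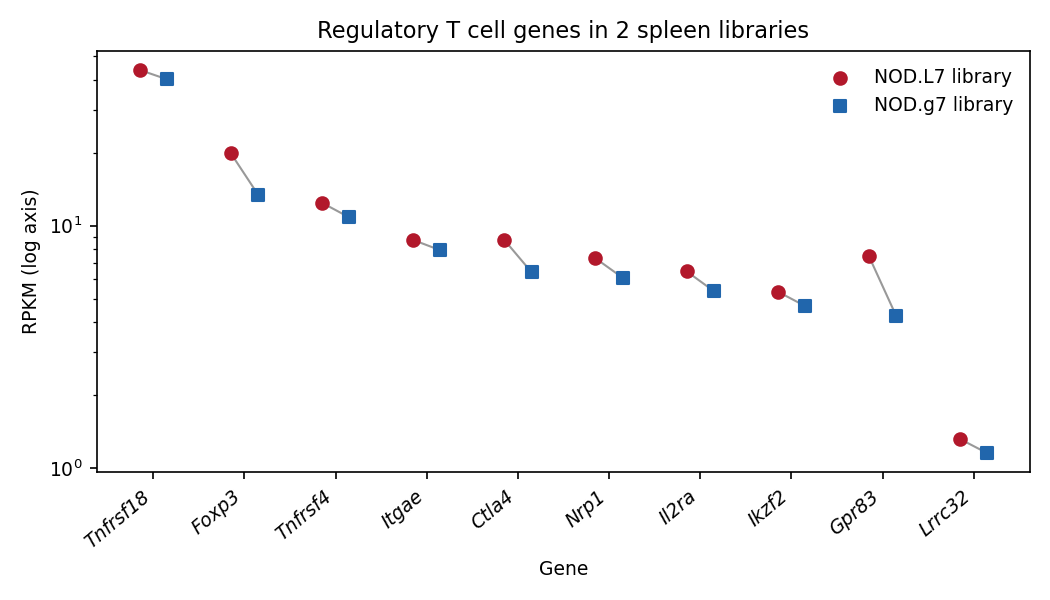
RPKM (log axis) of the 10 genes in the NOD.L7 library (circles) and the NOD.g7 library (squares), ordered by the NOD.g7 level, with 1 library per genotype and a line joining the 2 values of a gene. Tnfrsf18 was highest and Lrrc32 lowest in both libraries, and Gpr83 stood ninth in NOD.g7 but sixth in NOD.L7.

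The order of levels was much the same in both libraries. Tnfrsf18, Foxp3 and Tnfrsf4 were the 3 highest of the 10 genes and Lrrc32 the lowest. The 6 genes between Tnfrsf4 and Lrrc32 lay close together, at RPKM 5.34 to 8.73 in NOD.L7 and 4.24 to 7.91 in NOD.g7. Ctla4 and Itgae, at 8.73 and 8.72 in NOD.L7, cannot be ordered there, and the spread over mice that would order the other neighbours was not measured.

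Foxp3 (chromosome X, 7162697 to 7172369 in mm9, as are all gene positions below) was at an RPKM of 19.9 in NOD.L7 and 13.4 in NOD.g7, a fold of 1.48 (1.41 to 1.56) and a log2 ratio of 0.54. Of all kept genes, 2.22% had a log2 ratio at least as high. The Foxp3 row lies within the long span given for Gm10921, which was listed at 0 in both libraries. The nearest row beside it, Ccdc22, starts 53 bases beyond and was at 14.0 in both libraries, with a fold of 0.996 (0.93 to 1.07).

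Ikzf2 (chromosome 1, 69577784 to 69732534) encodes Helios, a zinc finger factor of the Ikaros family carried by most regulatory T cells of thymic origin. It was at 5.34 in NOD.L7 and 4.66 in NOD.g7, a fold of 1.15 (1.08 to 1.21). The 2 transcription factor genes of the set thus differed by unequal folds whose counting intervals did not overlap. Its relative Ikzf4 (Eos), a partner of Foxp3, was at 2.72 in NOD.L7 and 2.08 in NOD.g7.

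Of 28 kept genes for other factors that act on or with Foxp3, 3 had a log2 ratio of 0.25 or more and 3 of -0.25 or less, against 8.82% and 4.74% of kept genes, and the median was 0.03. The 3 with the largest absolute ratio were Nr4a3, an orphan nuclear receptor induced by antigen receptor signals, Batf, an AP-1 family factor of effector lymphocytes, and Ikzf3, the Ikaros relative Aiolos. Nr4a3 was at 3.59 in NOD.L7 and 2.56 in NOD.g7, and Batf at 25.0 in NOD.L7 and 19.2 in NOD.g7. Ikzf3 went the other way, at 120 in NOD.L7 and 150 in NOD.g7.

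Il2ra (chromosome 2, 11564419 to 11614821) was at 6.48 in NOD.L7 and 5.36 in NOD.g7, a fold of 1.21 (1.12 to 1.31) and a log2 ratio of 0.23. The other chains of the interleukin-2 receptor, which NK cells and other T cells share, were lower in NOD.L7. Il2rb was at 52.6 in NOD.L7 and 59.1 in NOD.g7, a fold of 0.89 (0.87 to 0.91). Il2rg was at 272 in NOD.L7 and 284 in NOD.g7, a fold of 0.96 (0.94 to 0.97). Of kept genes, 90.5% had a log2 ratio at least as high as that of Il2rb, and 75.8% as that of Il2rg. Il2 itself, the cytokine made by activated T cells, was under the filter, at 0.199 in NOD.L7 and 0.0711 in NOD.g7, a fold whose interval ran from 0.88 to 11.7.

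Of the 15 kept genes of interleukin-2 receptor signalling, 6 had a log2 ratio of 0.25 or more and 1 of -0.25 or less. The shares over all kept genes were 8.82% and 4.74%. The median of the list was 0.20. Socs3 and Cish, inhibitors of cytokine signalling that STAT factors induce, were among the 3 with the largest absolute ratio. Socs3 was at 41.1 in NOD.L7 and 25.9 in NOD.g7, and Cish at 10.6 in NOD.L7 and 6.54 in NOD.g7. The third was Il15ra, which lies next to Il2ra on chromosome 2 and encodes the interleukin-15 receptor alpha chain, at 1.72 in NOD.L7 and 3.38 in NOD.g7. The cytokine-induced inhibitors are made in many cell types. The kept monocyte and macrophage markers, given below, were higher in the same library, and the part of any cell type in the Socs3 and Cish values was not tested.

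Ctla4 (chromosome 1, 60965869 to 60972674) was at 8.73 in NOD.L7 and 6.42 in NOD.g7, a fold of 1.36 (1.23 to 1.51) and a log2 ratio of 0.39. Of kept genes 3.97% had a ratio at least as high. Its ligand genes had larger folds: Cd80 was at 4.75 in NOD.L7 and 2.73 in NOD.g7, a fold of 1.74 (1.542 to 1.960). Cd86 was at 18.5 in NOD.L7 and 11.1 in NOD.g7, a fold of 1.66 (1.56 to 1.78).

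These ligands are best known from antigen-presenting cells, and activated T cells can also make them. The list of CTLA-4 ligands and the CD28 family had 11 kept genes, with a median of 0.03. Of these, 4 had a log2 ratio of 0.25 or more and 2 of -0.25 or less, against 8.82% and 4.74% of kept genes. The others among the 4 were Pdcd1, the inhibitory receptor PD-1, at 8.30 in NOD.L7 and 5.09 in NOD.g7, and Icos. The kept monocyte and macrophage markers were higher and the B cell markers mostly lower in the same library, and their part in the ligand values was not tested.

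Tnfrsf18 (chromosome 4, 155400451 to 155403000) encodes GITR and Tnfrsf4 (chromosome 4, 155387804 to 155390698) encodes OX40, both co-stimulatory receptors of the tumour necrosis factor receptor family. The rows lie 9.75 kb apart. Tnfrsf18 was at 43.8 in NOD.L7 and 40.1 in NOD.g7, a fold of 1.09 (1.03 to 1.16). Tnfrsf4 was at 12.4 in NOD.L7 and 10.8 in NOD.g7, a fold of 1.15 (1.03 to 1.28). These neighbours had folds with overlapping counting intervals, and 20.6% and 13.0% of kept genes had log2 ratios at least as high as those of Tnfrsf18 and Tnfrsf4.

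Their ligands, made mainly by antigen-presenting cells, were under the filter in both libraries. Tnfsf18 was at 0.498 in NOD.L7 and 0.329 in NOD.g7, and Tnfsf4 at 0.373 in NOD.L7 and 0.415 in NOD.g7, with fold intervals that include 1. Of 9 kept relatives and adaptors, 2 had a log2 ratio of 0.25 or more and 0 of -0.25 or less, against 8.82% and 4.74% of kept genes. The 2 were Tnfsf9 and Tnfrsf25 (death receptor 3). Tnfsf9, the ligand of the co-stimulator 4-1BB, was at 2.78 in NOD.L7 and 1.42 in NOD.g7, and Tnfrsf25 at 10.9 in NOD.L7 and 8.17 in NOD.g7. The third by absolute ratio was the adaptor gene Traf5, at 30.6 in NOD.L7 and 33.1 in NOD.g7.

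Lrrc32 (chromosome 7, 105642732 to 105650340) encodes GARP, which holds latent TGF-beta on the surface of activated regulatory T cells. It was the lowest of the 10 genes, at 1.32 in NOD.L7 and 1.15 in NOD.g7, a fold of 1.14 (0.97 to 1.35). It rested on about 364 fragments in NOD.L7 and 240 in NOD.g7, and no difference was detectable at this depth. Tgfb1, its cargo, was at 114 in NOD.L7 and 115 in NOD.g7, and Itgb8, an integrin chain that releases active TGF-beta, was under the filter at 0.343 in NOD.L7 and 0.190 in NOD.g7.

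The TGF-beta activation list had 9 kept genes, with a median of 0.08. Of these, 1 had a log2 ratio of 0.25 or more and 0 of -0.25 or less, against 8.82% and 4.74% of kept genes. The 1 gene was Lrrc33, a GARP relative of myeloid cells, at 60.3 in NOD.L7 and 49.1 in NOD.g7. Next by absolute ratio were Furin, the protease that cleaves the TGF-beta precursor, at 21.7 in NOD.L7 and 19.0 in NOD.g7, and Itgav, an integrin alpha chain, at 8.82 in NOD.L7 and 7.89 in NOD.g7.

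Itgae (chromosome 11, 72904097 to 72960951) encodes CD103, the integrin chain that binds E-cadherin, and is also made by some CD8+ T cells and dendritic cells. It was at 8.72 in NOD.L7 and 7.91 in NOD.g7, a fold of 1.10 (1.03 to 1.18). Its row contains that of Gsg2, the haspin kinase gene, at 4.17 in NOD.L7 and 3.94 in NOD.g7, and reads of overlapping genes cannot be told apart without the counting rule. The partner chain Itgb7 was at 186 in NOD.L7 and 183 in NOD.g7, and the ligand gene Cdh1 at 2.63 in NOD.L7 and 2.03 in NOD.g7. Ccr9, a gut homing receptor listed with them, was lower at 6.34 in NOD.L7 and 11.3 in NOD.g7.

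Nrp1 (chromosome 8, 130882973 to 131029375) encodes neuropilin-1, a receptor for semaphorins and vascular endothelial growth factor found on regulatory T cells of thymic origin, plasmacytoid dendritic cells and endothelium. It was at 7.33 in NOD.L7 and 6.09 in NOD.g7, a fold of 1.20 (1.11 to 1.30) and a log2 ratio of 0.23. Sema4a, a ligand on immune cells, was at 28.3 in NOD.L7 and 26.3 in NOD.g7. Vegfa was under the filter at 0.407 in NOD.L7 and 0.230 in NOD.g7, a fold of 1.77 (1.19 to 2.69). Of 12 listed ligands and co-receptors 7 were under the filter. The semaphorin co-receptor gene Plxna1 had the largest absolute ratio of the 5 kept, at 5.87 in NOD.L7 and 4.58 in NOD.g7, and the adaptor gene Gipc1 was at 20.9 in NOD.L7 and 21.96 in NOD.g7.

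Gpr83 (chromosome 9, 14664698 to 14673943), a G protein-coupled receptor gene whose transcript is enriched in Foxp3+ T cells of mice, had the largest fold of the 10. It was at 7.48 in NOD.L7 and 4.24 in NOD.g7, a fold of 1.77 (1.63 to 1.92) and a log2 ratio of 0.70. Its ratio ranked 127 among the 11141 kept genes, so that 1.14% were at least as high. Relative to Foxp3 in the same library Gpr83 was at 0.376 in NOD.L7 and 0.316 in NOD.g7, a ratio of 1.19 (1.08 to 1.31).

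**Figure D2:**
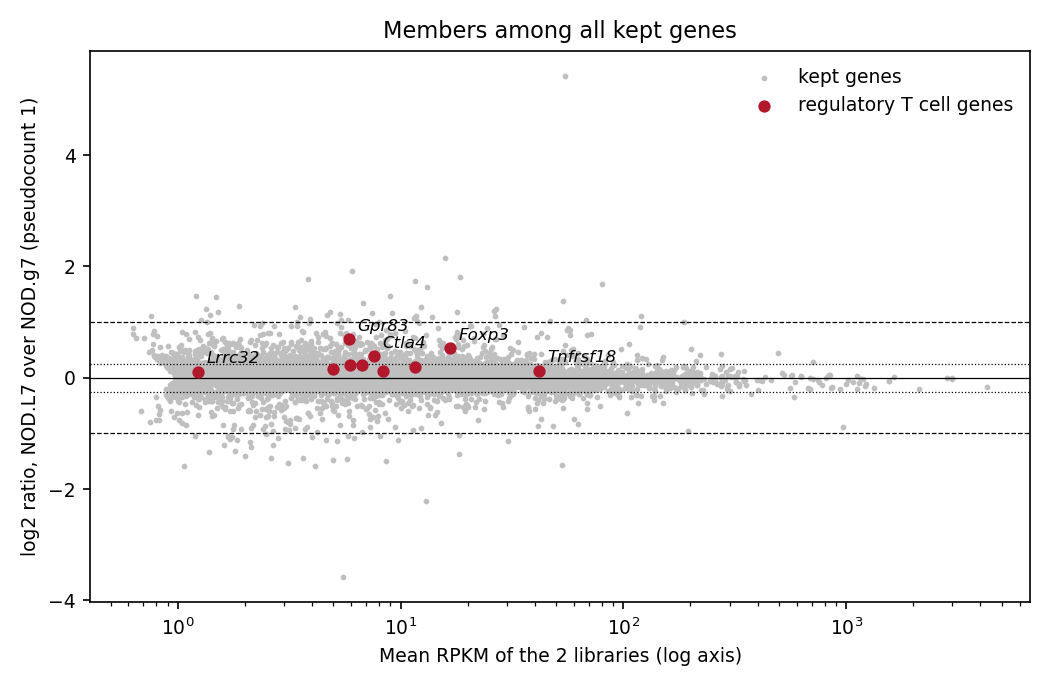
Log2 ratio of NOD.L7 over NOD.g7 (1 RPKM added) against the mean RPKM of the 2 libraries (log axis) for the kept genes (grey) and the 10 regulatory T cell genes (red). Dashed lines mark 1 and -1 and dotted lines 0.25 and -0.25; the 10 genes lie between 0.11 and 0.70, with Gpr83, Foxp3 and Ctla4 above the upper dotted line.

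Set against the Foxp3 level of the same library, 8 of the other 9 genes stood lower in NOD.L7, with ratios from 0.74 for Tnfrsf18, and so did 96.5% of all other kept genes, since the Foxp3 fold was among the highest. Tnfrsf18 was at 2.20 times the Foxp3 level in NOD.L7 and 2.99 times in NOD.g7. Ctla4, whose fold was next below that of Foxp3, was at 0.439 of Foxp3 in NOD.L7 and 0.479 in NOD.g7, a ratio of 0.92 (0.82 to 1.03). Gpr83 alone of the 9 stood higher.

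How the genes compared also depended on the T cell gene they were set against. Cd3e, a chain of the T cell receptor complex in all T cells, was at 152 in NOD.L7 and 150 in NOD.g7, and all 10 genes were higher relative to it, by ratios of 1.08 to 1.74, beside 50.2% of all other kept genes. Cd4, the co-receptor of the cells that regulatory T cells belong to, was at 136 in NOD.L7 and 106 in NOD.g7, a fold of 1.29 (1.26 to 1.32). Relative to Cd4, 3 of the 10 genes were higher and 7 lower in NOD.L7, beside 7.2% of kept genes that were higher on that scale, where the median log2 ratio of all kept genes was -0.31.

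For every 100 RPKM of Cd4, Foxp3 was at 14.6 RPKM in NOD.L7 and 12.7 in NOD.g7, a ratio of 1.15 (1.09 to 1.21). Gpr83 was at 5.49 in NOD.L7 and 4.004 in NOD.g7, a ratio of 1.37 (1.26 to 1.49). These were the 2 of the 10 genes whose counting interval stayed above 1, as it did for 3.57% of kept genes with a transcript length. Ctla4 had a ratio of 1.06 (0.95 to 1.17). The interval lay below 1 for 4 of the 10, as it did for 85.4% of kept genes, so a place below 1 on this scale does not set these genes apart. The 4 were Tnfrsf18, with a ratio of 0.85 (0.80 to 0.90), Itgae, with 0.86 (0.80 to 0.92), Ikzf2, with 0.89 (0.84 to 0.94), and Tnfrsf4, with 0.89 (0.798 to 0.996). In whole spleen RNA, more cells of a type and more RNA per cell cannot be told apart, for Cd4 as for the 10 genes. The part of cells other than CD4+ T cells in the Cd4 level was not tested.

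**Figure D3:**
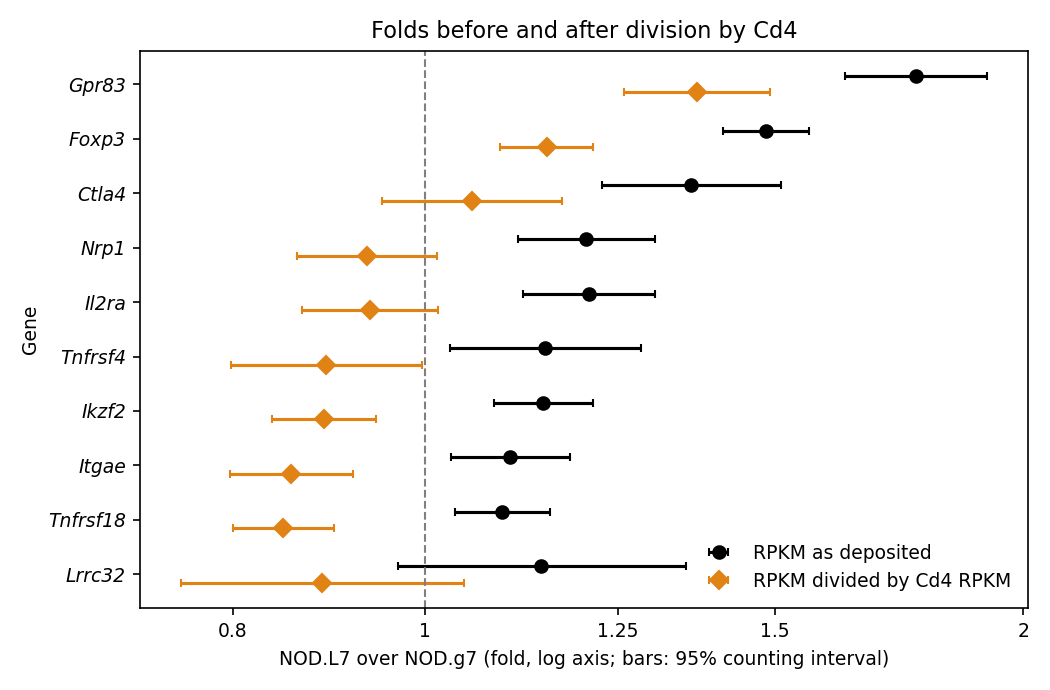
Fold of NOD.L7 over NOD.g7 (log axis) for the 10 genes, from the RPKM as deposited (circles) and after dividing each library by its Cd4 RPKM (diamonds), with bars for 95% counting intervals and a dashed line at 1. All 10 circles lie above 1, and 3 of the 10 diamonds do.

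In a list of regulatory T cell effector molecules, which also holds some receptors, 9 of 11 kept genes were higher in NOD.L7 as deposited. Of all kept genes 56.2% were. Of the 11, 6 had a log2 ratio of 0.25 or more and 2 of -0.25 or less, against 8.82% and 4.74% of kept genes. The median of the list was 0.31 as deposited, 0.13 without a filter and 0.07 scaled to Cd4. Entpd1 (CD39), which breaks down extracellular ATP, was at 23.1 in NOD.L7 and 12.7 in NOD.g7, a fold of 1.82 (1.73 to 1.91). Tigit, an inhibitory receptor of T and NK cells, was at 8.12 in NOD.L7 and 5.03 in NOD.g7, a fold of 1.61 (1.37 to 1.91). Klrg1, a lectin receptor shared with NK and effector T cells, was 1 of the 2 lower genes, at 1.46 in NOD.L7 and 2.99 in NOD.g7. The other was the cytokine gene Il12a, with a fold of 0.65 (0.55 to 0.76). Ebi3, counted among the 9 higher genes, had a fold of 1.01 (0.90 to 1.13). Il10 was under the filter, at 0.305 in NOD.L7 and 0.289 in NOD.g7. Entpd1 is also made by myeloid and B cells.

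The list of further surface and signature genes had 15 kept genes, with a median of 0.07. Of these, 5 had a log2 ratio of 0.25 or more and 1 of -0.25 or less, against 8.82% and 4.74% of kept genes. The largest was Capg, an actin-capping protein of macrophages as well as of regulatory T cells, at 122 in NOD.L7 and 37.3 in NOD.g7. It was the 1 listed gene outside the cell type markers that passed a log2 ratio of 1. Ecm1, which encodes a secreted matrix protein, followed at 11.01 in NOD.L7 and 6.39 in NOD.g7. Ccr4, a chemokine receptor of regulatory and type 2 helper T cells, was at 3.74 in NOD.L7 and 2.08 in NOD.g7.

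**Figure D4:**
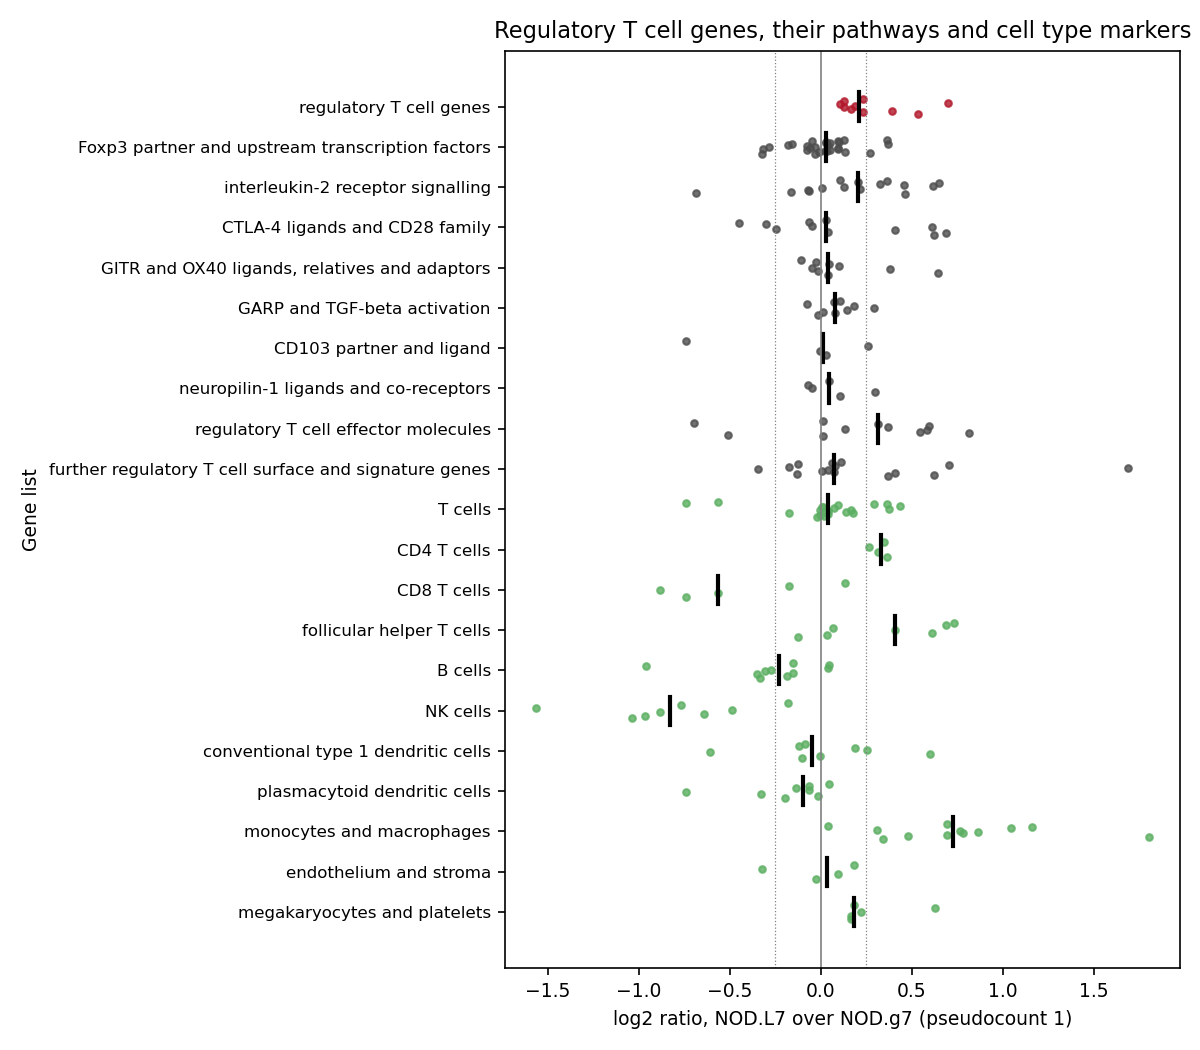
Log2 ratio of NOD.L7 over NOD.g7 (1 RPKM added) for each kept gene of the regulatory T cell set (red), of pathway lists (grey) and of cell type marker lists (green), 1 point a gene, with black bars for medians and dotted lines at 0.25 and -0.25. The regulatory T cell genes have a median of 0.21, the CD4 T cell markers 0.33, the CD8 T cell markers -0.57 and the monocyte and macrophage markers 0.73.

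Both libraries held abundant B and T cell transcripts, as spleen does. Other cell types differed as deposited between the libraries alongside these genes, and their part in the values of the 10 genes was not tested. For the marker counts below, the shares over all kept genes were 56.2% higher, 8.82% at 0.25 or more and 4.74% at -0.25 or less. All 20 T cell markers were kept, with a median of 0.04 and a summed RPKM of 1764 in NOD.L7 and 1722 in NOD.g7. The 4 CD4 T cell markers were each at 0.25 or more (median 0.33), with Zbtb7b, the CD4 lineage factor ThPOK, at 39.7 in NOD.L7 and 32.9 in NOD.g7. Of 5 CD8 T cell markers 3 were at -0.25 or less, with Cd8a at 31.7 in NOD.L7 and 53.7 in NOD.g7.

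Follicular helper T cells, which also carry Ctla4, Icos and Pdcd1, had 7 of 10 markers kept, 4 of them at 0.25 or more and 0 at -0.25 or less. Their median was 0.41, but 0.25 without a filter, 0.24 at a filter of RPKM 5 and 0.07 scaled to Cd4. Their most abundant markers, Cxcr5 and Bcl6, are shared with B cells. Cxcr5 was at 120 in NOD.L7 and 131 in NOD.g7, and Bcl6 at 35.6 in NOD.L7 and 34.7 in NOD.g7. Icos and Pdcd1, among the 4 markers at 0.25 or more, were also counted in the list of CTLA-4 ligands and the CD28 family.

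Among other lymphoid and dendritic cells, NK cells had all 8 markers lower (median -0.83), and their summed RPKM was 76.6 in NOD.L7 and 169 in NOD.g7. Markers of type 1 conventional dendritic cells, which carry CD103, had a median of -0.05 and a summed RPKM of 235 in NOD.L7 and 245 in NOD.g7. Those of plasmacytoid dendritic cells, which carry neuropilin-1, had a median of -0.10 and sums of 366 in NOD.L7 and 417 in NOD.g7. At a filter of RPKM 5 the type 1 median was 0.18. Irf8 (118 in NOD.L7, 129 in NOD.g7) and Wdfy4 (72.6 and 77.3) led the type 1 sum. Spib (140 in NOD.L7, 154 in NOD.g7) and Ly6d (106 and 134) led the plasmacytoid sum. The part of B cells in these sums was not tested. Of the B cell markers, led by Cd79b and Cd79a, 8 of 10 were lower (median -0.23), with sums of 2278 in NOD.L7 and 2775 in NOD.g7.

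All 12 monocyte and macrophage markers were higher as deposited, 11 of them at 0.25 or more, with a summed RPKM of 1213 in NOD.L7 and 964 in NOD.g7. Of 12 endothelial and stromal markers 8 were under the filter in both libraries, and their sum of 77.8 in NOD.L7 and 79.5 in NOD.g7 was mostly Pecam1, which leukocytes share. Of 9 megakaryocyte and platelet markers, from cells that can carry GARP, 5 were kept, with a median of 0.18, and the 1 gene left at a filter of RPKM 5, Ppbp, was at 0.63. Their summed RPKM was 22.4 in NOD.L7 and 16.7 in NOD.g7. No marker of any of these lists was listed at 0 in either library.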

How the data were processed

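The authors deposited 1 table of RPKM values per gene with coordinates, 1 column per library. Per the submitters' processing notes, the tools included CASAVA 1.8.2 and SAMtools 0.1.18, and the build was mm9. Gene models, strand handling and the counting of multiply mapped reads were not stated in any source used. The 10 genes and all lists were chosen with earlier results of these data known.

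Depth was worked out from low RPKM values of single-exon genes under 2500 bases, which were whole multiples of 1 sequenced base (within 0.15) for 100% of 115 values in NOD.L7 and of 103 in NOD.g7. It came to 12.1 Gb mapped in NOD.L7 and 9.13 Gb in NOD.g7. Fragments were approximated from the RPKM, the longest GENCODE M21 transcript and 200 bases per fragment, and fold intervals are 95% Clopper-Pearson intervals. Intervals of ratios to Cd4, Cd3e or Foxp3 use a normal approximation on the log scale. They cover counting error only.

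Log2 ratios used a pseudocount of 1 and the genes that reached an RPKM of 1 in at least 1 library. With 1 library per genotype no test was made. The text names the 10 genes, the 3 kept genes of each pathway list with the largest absolute log2 ratio, ligands and receptors fixed by name, and the most abundant cell type markers. Icos, Ikzf4, Ccdc22, Gsg2, Il10, Ebi3 and Il12a were added after their values were seen. In each list the 10 genes were left out of the counts. Some other genes stood in more than 1 list. The alternatives changed the pseudocount (0.1 or 0.5), the filter (none, or RPKM 5) or the scaling: median centring, a TMM factor (trimming 30% of ratios and 5% of levels), the T cell markers or Cd4. Intervals were also computed with fragments of 100 or 300 bases. The calculations were made in Python 3.11.15 with SciPy 1.17.1 and were tested on simulated data.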

Additional observations from a re-analysis of the deposited data

How the results depend on the processing

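Variation between mice cannot be seen under any setting, since there is 1 library per genotype and none can be omitted. No paired analysis was possible because 1 library stood for each genotype. Scaling to Cd4 was the setting that changed directions among the 10 genes. Of them 3 were then higher in NOD.L7, against 10 as deposited, beside 7.2% of all kept genes on that scale. The median log2 ratio of the 10 was -0.087, against -0.31 over all kept genes. At least 0.25 higher was 1 of the 10, against 3 as deposited, and the share of all kept genes there was not computed. Il2ra then had a log2 ratio of -0.078, Ikzf2 -0.14, Tnfrsf18 -0.23, Tnfrsf4 -0.15, Lrrc32 -0.090, Itgae -0.20 and Nrp1 -0.083, while Gpr83 (0.38), Foxp3 (0.19) and Ctla4 (0.07) stayed above 0. Cd4 itself is 0.36 higher on the log2 scale in NOD.L7, so this scaling lowers every ratio by construction. With a pseudocount of 0.1, 5 of the 10 were at least 0.25 higher, and with 0.5, 4 of the 10 were. The share of all kept genes at 0.25 was not computed for these pseudocounts. Both also raised the number of all kept genes past a log2 ratio of 1, given below. Under the other settings of pseudocount, filter and scaling, each of the 10 that was still kept had the same direction, and none reached a log2 ratio of 1; a filter at an RPKM of 5 left out Lrrc32. The number of all kept genes past a log2 ratio of 1 was 79, and 166 with a pseudocount of 0.1, 124 with 0.5 and 52 at a filter of RPKM 5. Fragments of 100 bases raised the lower limit of the Lrrc32 fold to 1.02.

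Medians of other lists changed sign as follows. Scaled to Cd4 they were -0.32 for factors acting with Foxp3, -0.16 for interleukin-2 receptor signalling, -0.32 for the CTLA-4 ligands and CD28 family, -0.30 for the GITR and OX40 list, -0.27 for TGF-beta activation, -0.35 for the CD103 list, -0.25 for the neuropilin-1 list, -0.28 for further signature genes, -0.32 for T cells, -0.017 for CD4 T cells, -0.24 for endothelium and stroma and -0.038 for megakaryocytes. At a filter of RPKM 5 they were -0.015 for the GITR and OX40 list, -0.0033 for the CD103 list, 0.18 for type 1 conventional dendritic cells and -0.030 for endothelium and stroma. Scaled to the T cell markers they were -0.012 for factors acting with Foxp3, -0.0094 for the CTLA-4 list, -0.027 for the CD103 list and -0.0071 for endothelium and stroma. The CD103 list was at -0.0049 with median centring and -0.0082 with the TMM factor. The median of the effector list was 0.44 with a pseudocount of 0.1, 0.13 without a filter, 0.46 at a filter of RPKM 5 and 0.07 scaled to Cd4. That of follicular helper T cells was 0.25 without a filter, 0.24 at a filter of RPKM 5 and 0.07 scaled to Cd4, and that of megakaryocytes was 0.63 at a filter of RPKM 5, which leaves 1 gene.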

Other observations

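The rows next to the 10 genes on their chromosomes, chosen by position, are given for comparison. Whether a difference was shared along a locus was not tested. Erbb4, Spag16 and Gucy2d were listed at 0 in both libraries and could show no difference. The 11 kept neighbours had a median log2 ratio of 0.04. Of these, 2 had a log2 ratio of 0.25 or more and 1 of -0.25 or less, against 8.82% and 4.74% of all kept genes. The higher ones were Icos and Folr4. Icos, the inducible co-stimulator on the far side of Ctla4 from Cd28, was at an RPKM of 11.2 in NOD.L7 and 8.22 in NOD.g7, a fold of 1.36 (counting interval 1.27 to 1.46), close to the 1.36 of Ctla4 itself. Cd28, the third receptor gene of that locus, was at 29.5 in NOD.L7 and 28.7 in NOD.g7, a fold of 1.03 (0.99 to 1.06). Folr4 (now Izumo1r), which encodes folate receptor 4 of regulatory T cells, lies 16.3 kb beyond Gpr83 and was at 23.0 in NOD.L7 and 17.6 in NOD.g7, a fold of 1.31 (1.21 to 1.41). The lower neighbour was Il15ra, 12.3 kb beyond Il2ra, with a fold of 0.51 (0.43 to 0.60). Sdf4, which ends 85 bases before Tnfrsf4, was at 43.6 in NOD.L7 and 41.2 in NOD.g7. Itgb1, the integrin beta chain gene next to Nrp1, was at 79.8 in NOD.L7 and 68.5 in NOD.g7, a fold of 1.16 (1.14 to 1.19).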
